A study of Homo sapiens with 12 samples.

Results

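The response of human B-cell lymphoma cells to the compound ST5589 was measured on single-colour Illumina expression beadchips, and is described here as the mean of the effects in 2 cell lines. All 12 arrays of the series were used: 6 from cells exposed to ST5589 at 300 nM and 6 from cells given DMSO, the solvent. In each treatment 3 arrays came from DoHH2, a germinal centre B-cell lymphoma line carrying the t(14;18) translocation, and 3 from TMD8, a line from a diffuse large B-cell lymphoma, of activated B-cell type. The 4 groups were therefore DoHH2 with ST5589, DoHH2 with DMSO, TMD8 with ST5589 and TMD8 with DMSO. The labels describe ST5589 as derived from ST1926, also called adarotene, which belongs to the atypical retinoids. Each cell line is a single established line grown in culture, so the 2 lines stand for themselves and not for lymphoma subtypes. The labels state neither the exposure time nor whether replicates came from separate cultures. The p-values therefore reflect the spread among these arrays alone, and that spread may be technical.

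The genes that changed belong mainly to the cell cycle and to stress signalling. Transcripts needed for mitosis (the Aurora and Polo kinases, cyclin B, kinesins and centromere proteins) are made late in the cycle, in G2 and M phase, and many of their promoters carry a short element called the cell cycle genes homology region, through which they are held back when p53 induces the cell cycle inhibitor p21. Transcripts for DNA replication are made earlier, at the entry into S phase, under E2F transcription factors. The integrated stress response slows translation and, through ATF4, raises transcription factors such as ATF3 and DDIT3 and enzymes of amino acid metabolism.

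Values are normalized log2 intensities, and a fold change is the log2 difference ST5589 minus DMSO, given with its standard error from limma. The averaged effect is the mean of the DoHH2 and TMD8 effects from 1 fit. A gene was called when limma's Benjamini-Hochberg adjusted p was under 0.05. Among 11419 tested genes the median standard error was 0.080 for the averaged effect and 0.11 within a line. On 12 arrays the median intensity lay between 90.0 and 113, and 38.0% to 46.1% of probes were above background. Markers of B cells were checked first: of 12 pan-B-cell markers 11 had a probe and 10 were above background on every array, whereas PAX5, a defining B-cell factor, was below it on all arrays. Of 10 germinal centre markers 7 to 9 were above background in DoHH2 and 5 to 6 in TMD8. Their summed intensity with DMSO was nevertheless lower in DoHH2 (1206 to 1569) than in TMD8 (2755 to 4186). Of 10 activated B-cell markers 9 to 10 were above background in DoHH2 and 10 in TMD8, with DMSO sums of 4525 to 5966 and 15390 to 19506. Of 10 markers of T and NK cells, 1 to 3 were above background on any array, and CD3E, CD3G, CD7, NKG7, GNLY and KLRD1 were below it on all. Of 10 myeloid markers 4 to 5 were above background on each array, and of 10 stromal and epithelial markers 1 to 2 with ST5589 and 0 to 1 with DMSO in DoHH2, and 3 to 5 with ST5589 and 4 to 5 with DMSO in TMD8. Each line was hybridised on its own chip, and on each chip the ST5589 and DMSO arrays held separate sets of places, so the effect of place and of treatment cannot be told apart. The array labelled DoHH2 ST5589 replicate 2 had weak signal at 21 probes that are bright in TMD8 and near background on the remaining DoHH2 arrays; the median was 4.15% of their level in TMD8. Without that array 80 genes were called for the averaged effect and 3 in DoHH2. The mean correlation of an array with the others of its group was lowest at 0.985 for DoHH2 ST5589 replicate 3 and at 0.986 for DoHH2 ST5589 replicate 1, DoHH2 DMSO replicate 1 and TMD8 DMSO replicate 1, and was 0.989 to 0.996 for the other arrays.

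Averaged over both lines, ST5589 changed 85 genes (0.744% of those tested): 43 rose (0.377%) and 42 fell (0.368%). As an alternative chosen after seeing the data, the array of lowest correlation was left out of each of 3 groups (replicate 3 of DoHH2 with ST5589 and replicate 1 of DMSO in each line). Without these 3 arrays 120 genes were called in the averaged fit, 2 in DoHH2 and 160 in TMD8. Of the 42 genes that fell, 26 were on the lists of mitosis genes. All lists used here were chosen with earlier results of these data known, so such counts describe the calls and are no separate support. Of the 43 that rose, 9 were listed p53 targets, 8 were on the list of the integrated stress response (SESN2 on both), 9 were on the lists of G1/S regulators, DNA replication and DNA repair, 5 were listed small nuclear or nucleolar RNAs, IER3 was a listed NF-kB target, and 12 were on no list. The median of the averaged fold change was 0.52 for the called rises and -0.53 for the called falls, against 0.01 for all tested genes. Among the rises the median was 0.37 in DoHH2 and 0.63 in TMD8, and among the falls it was -0.40 in DoHH2 and -0.70 in TMD8. The effect was larger in TMD8 for 36 of 43 rises and 38 of 42 falls. The sign was shared by both lines in 40 of 43 rises and 41 of 42 falls, a count that choosing genes on the average favours. The calls were sensitive to 1 way of normalizing. Cyclic loess in place of quantile normalization gave 85 calls, 79 of them shared, whereas scaling the arrays to a common median gave 0 by limma (525 at an unadjusted p under 0.05, against 1202, or 10.5%, with quantile normalization). Under that scaling the median standard error was 0.13, and the median over all genes was -0.06 on average and -0.09 in TMD8. The fold changes shifted as well. The falls of KIF20A and AURKA were larger, at -1.09 and -0.83 against -0.95 and -0.64 with quantile normalization. The rises of ATF3 and CDKN1A were smaller, at 0.89 and 0.85 against 1.04 and 1.08, and INHBE stayed at 0.63. Some weaker rises shrank more, such as MCM4 to 0.17 from 0.40 and UNG to 0.13 from 0.35.

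Within the lines, 4 genes were called in DoHH2 (0.035%) and 106 in TMD8 (0.928%; 64 higher, 0.56%, and 42 lower). The 4 were ATF3 and INHBE, which rose, and KIF20A and DLGAP5, which fell. Leaving out any 1 TMD8 array changed the TMD8 count to between 50 and 66 genes. The DoHH2 count was 1 or 2 without any of DoHH2 DMSO replicates 1, 2 and 3, DoHH2 ST5589 replicates 1 and 3, TMD8 DMSO replicates 2 and 3 and TMD8 ST5589 replicates 1, 2 and 3. The genes called in TMD8 were also read in DoHH2, since the lines share no array. The readings are not fully separate, because the normalization and the pooled spread were shared. Both chips also held the treatments in the same places, so an effect of place could recur in both lines. Of 37 protein-coding genes called lower in TMD8, 36 were also below DMSO in DoHH2, with a median of -0.39 there and -0.70 in TMD8. Of 44 protein-coding genes called higher in TMD8, 39 were above DMSO in DoHH2, with medians of 0.24 in DoHH2 and 0.61 in TMD8. The 20 other transcripts called higher in TMD8, mostly small RNAs, went differently: 4 of 20 were above DMSO in DoHH2, where their median was -0.07, against 1.44 in TMD8. For comparison, 53.3% of all tested genes were above DMSO in DoHH2 and 52.7% in TMD8, and 34.1% were above it in both lines.

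**Figure D1:**
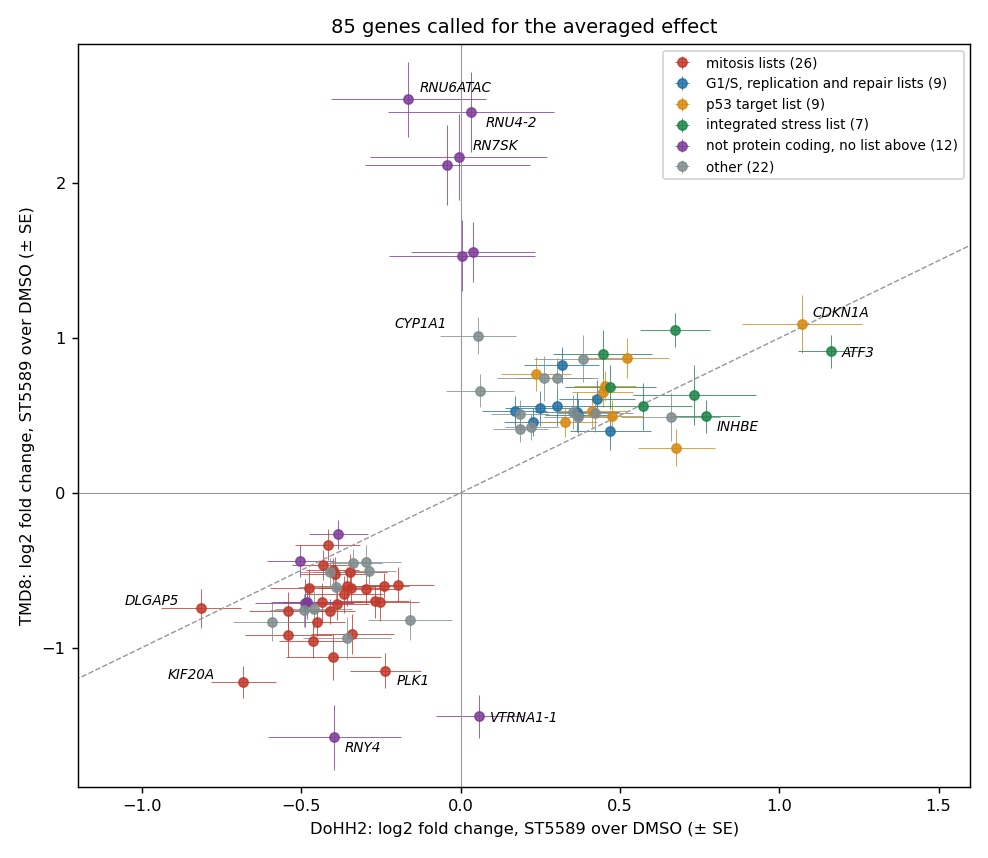
Log2 fold change of ST5589 over DMSO in DoHH2 (horizontal axis) and in TMD8 (vertical axis) for the 85 genes called for the averaged effect, with standard errors; colours give the gene list and the dashed line marks equal effects. The 26 mitosis genes lie at lower left in both lines and the p53 and stress genes at upper right, whereas 6 small nuclear or nucleolar RNAs with TMD8 values from 1.53 to 2.54 lie between -0.16 and 0.04 in DoHH2.

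A count that does not rest on the pooled spread was also made. In 261 genes (2.29%) the 3 ST5589 arrays all lay on the same side of the 3 DMSO arrays in both lines; they are called apart in both lines below. Of these 133 (1.16%) were higher and 128 (1.12%) lower, and a further 32 (0.28%) were apart in opposite directions. In single lines 8.32% of genes were apart in DoHH2 and 17.8% in TMD8. With 3 arrays against 3, groups often fall apart in a line without any effect. The single-line shares are therefore no measure of a response. Of the 85 called genes, 31 of 43 rises and 34 of 42 falls were apart in both lines. Calling these genes on the same arrays favours this, so the count is no separate support for the calls.

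KIF20A, a kinesin of cytokinesis, had the largest fall of any protein-coding gene. It measured 8.16, 8.57 and 8.36 with ST5589 against 9.09, 8.95 and 9.08 with DMSO in DoHH2, and 8.60, 8.58 and 8.61 with ST5589 against 9.72, 9.87 and 9.88 with DMSO in TMD8. The treated arrays lay below every DMSO array in both lines, and the averaged fold change was -0.95 ± 0.07 (limma adjusted p = 3.01e-05), 1.94-fold lower. The fall was -0.68 ± 0.10 in DoHH2 and -1.23 ± 0.10 in TMD8, and the 2 effects differed by 0.54 ± 0.15, which did not pass (limma adjusted p = 0.7).

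AURKA, which encodes Aurora A, the kinase that matures centrosomes and builds the spindle, is the gene named in the title of the series. In DoHH2 it measured 9.52, 9.81 and 9.65 with ST5589 against 10.09, 10.07 and 10.17 with DMSO. In TMD8 it measured 10.46, 10.41 and 10.36 with ST5589 against 11.21, 11.26 and 11.26 with DMSO. Neither line showed any overlap of the groups. The averaged fold change was -0.64 ± 0.06 (limma adjusted p = 0.000202), or 1.56-fold lower, and a second AURKA probe gave -0.71. An exact permutation test of this single value within the lines gave a two-sided p of 0.005, the smallest that the 400 regroupings allow. Groups apart the same way in both lines always give that value, so it adds nothing to the lack of overlap. In the lines the fall was -0.45 ± 0.09 in DoHH2 (limma adjusted p = 0.224) and -0.84 ± 0.09 in TMD8 (limma adjusted p = 0.000382), and the difference of 0.38 ± 0.12 did not pass (limma adjusted p = 1). AURKB, the Aurora kinase of the centromere and midbody, averaged -0.16 ± 0.06 and was not called (limma adjusted p = 0.399).

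Of 10 tested Aurora kinases and partners, 4 fell and 0 rose, with a median of -0.33. Beside AURKA these were HMMR (-0.55 ± 0.09), a spindle pole protein, BIRC5 (-0.40 ± 0.08), the survivin subunit of the chromosomal passenger complex, and BORA (-0.38 ± 0.07), a cofactor through which Aurora A activates PLK1. BIRC5 and BORA were not stable calls, and lost them in 10 and 7 of the 12 fits that left out 1 array. CEP192, a centrosome scaffold, was at -0.01 ± 0.08.

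DLGAP5, a microtubule-binding protein of the spindle, was 1 of 4 called falls that were not larger in TMD8. Its arrays read 9.03, 9.45 and 9.19 with ST5589 against 10.26, 9.85 and 10.01 with DMSO in DoHH2, and 10, 10.01 and 9.91 against 10.85, 10.58 and 10.74 in TMD8. The fold change was -0.82 ± 0.13 in DoHH2 and -0.75 ± 0.13 in TMD8, an average of -0.78 ± 0.09 (limma adjusted p = 0.00093). Of 25 tested mitotic kinesins and spindle genes 7 fell, 0 rose and the median was -0.29. The others called were HMMR, given above, FAM83D (-0.49 ± 0.08), which recruits a kinase to the spindle, PRC1 (-0.46 ± 0.07), the bundler of the central spindle, KIF23 (-0.45 ± 0.06), a kinesin of the midbody, and ASPM (-0.43 ± 0.08), a spindle pole protein. KIF15 and KIF22, kinesins of the spindle and of chromosome arms, were both at 0.00 (± 0.10 and ± 0.08).

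CCNB1, cyclin B1, the partner of CDK1 at entry into mitosis, fell by 0.73 on the log2 scale (± 0.10, limma adjusted p = 0.00213). The DoHH2 arrays read 9.14, 9.44 and 8.97 with ST5589 against 9.71, 9.68 and 9.79 with DMSO, and the TMD8 arrays 8.83, 8.86 and 8.86 against 10.09, 9.66 and 9.57. No ST5589 array reached a DMSO array of its line. PLK1, the Polo-like kinase, averaged -0.69 ± 0.08 (limma adjusted p = 0.00093), but its arrays overlapped in DoHH2: 6.68, 6.88 and 6.91 with ST5589 against 7.13, 6.81 and 7.23 with DMSO there, and 7.08, 7.20 and 7.08 against 8.19, 8.28 and 8.35 in TMD8. The PLK1 effects were -0.24 ± 0.11 in DoHH2 and -1.15 ± 0.11 in TMD8, and the difference of 0.91 ± 0.16 did not pass (limma adjusted p = 0.12).

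Among 19 tested mitotic kinases, phosphatases and cyclins 7 fell and 0 rose, and the median was -0.35. The remaining falls were in CCNB2 (-0.63 ± 0.09), a second B-type cyclin, BUB1 (-0.57 ± 0.09), a kinase of the spindle checkpoint, NEK2 (-0.48 ± 0.07), a kinase that separates centrosomes, CKS2 (-0.46 ± 0.08), a subunit of cyclin-dependent kinases, and GTSE1 (-0.42 ± 0.06), a microtubule-associated protein of G2 and M. The kinase MELK, at 0.01 ± 0.06, and the subunit CKS1B, at -0.04 ± 0.15 (-0.23 from a second probe), were the members nearest to 0. Of the 19 genes, 17 were below 0 on average and 2 above, the highest at 0.40.

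Of 22 tested centromere and kinetochore genes 3 fell and 0 rose, and the median was -0.15. On average 18 were below 0 and 4 above, the highest at 0.30. CENPA, the histone H3 variant that marks centromeres, fell by 0.71 on the log2 scale (± 0.07, limma adjusted p = 0.000443). CENPE, a kinetochore motor, was at -0.65 ± 0.09 and CENPF, a kinetochore protein, at -0.45 ± 0.07. CENPK, a structural subunit, was at 0.00 ± 0.09 and BUB3, a checkpoint protein, at 0.04 ± 0.07, although 3 further BUB3 probes gave -0.34 to -0.13.

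Of 21 tested genes of anaphase and cytokinesis 6 fell and 0 rose, with a median of -0.24. PIF1, a DNA helicase, averaged -0.73 ± 0.11, and UBE2C, the ubiquitin-conjugating enzyme that works with the anaphase-promoting complex, -0.59 ± 0.06 (limma adjusted p = 0.000202). KPNA2, an importin, was at -0.55 ± 0.07, TOP2A, which untangles sister chromatids, at -0.51 ± 0.09, RACGAP1, of the central spindle, at -0.48 ± 0.09, and ECT2, its partner in furrow formation, at -0.48 ± 0.09. The condensin subunits SMC2 and NCAPH were both at 0.00 ± 0.07.

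Together these 5 groups held 96 tested genes, of which 26 fell and 0 rose; 85 were below 0 on average, 74 in both lines, and 28 were apart in both lines. Their median was -0.28 on average, -0.19 in DoHH2 and -0.34 in TMD8. Array by array, the mean of the 96 genes relative to the DMSO mean of the line was -0.22, -0.12 and -0.25 with ST5589 against -0.01, 0.01 and 0.00 with DMSO in DoHH2. In TMD8 it was -0.35, -0.34 and -0.36 with ST5589 against 0.04, -0.02 and -0.02 with DMSO. The groups did not overlap in either line. The median of these genes stayed below 0 under each normalization tried, and was -0.40 with common median scaling, where none was called; without the lowest-correlation array of those 3 groups 35 were called. In RNA from a whole culture, fewer cells in G2 and M phase and less of these transcripts per cell cannot be told apart. None of 11 tested genes for the regulators of this programme (FOXM1, MYBL2 and the DREAM complex) was called, and all lay between -0.11 and 0.10. With 0.744% of all tested genes called, 0 of 11 is near that share.

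**Figure D2:**
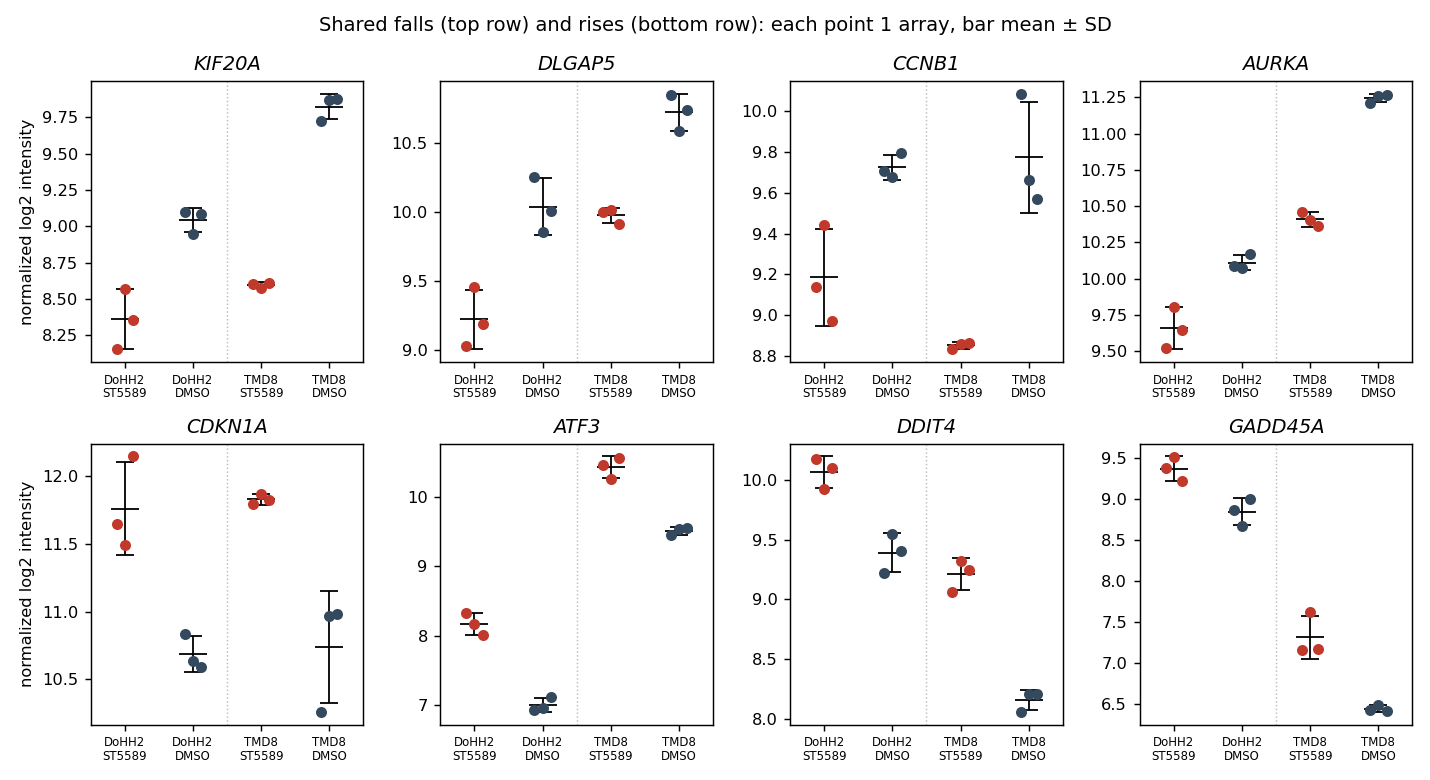
Normalized log2 intensity (vertical axes) of 4 genes that fell (KIF20A, DLGAP5, CCNB1 and AURKA) and 4 that rose (CDKN1A, ATF3, DDIT4 and GADD45A) in each group; each point is 1 array and the bars give mean ± SD of 3 arrays. In all 8 genes the ST5589 arrays lie apart from the DMSO arrays in both lines, and the vertical axes do not start at 0. For DDIT4 and GADD45A the rule by which they were named required this.

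The promoters of the genes that fell had a sequence feature in common that the calls did not use. In windows of 300 bases (250 before and 50 from the transcription start, RefSeq, GRCh38.p14), the letters of the cell cycle genes homology region, TTTGAA or TTCGAA on either strand, were searched. They occurred in 25 of the 31 called-lower genes that matched a promoter (80.6%), in 2 of 30 called-higher genes (6.67%) and in 1100 of 9126 tested genes (12.1%). The matched promoters without them were those of KIF20A, CCNB1, CENPE, NEK2, KNSTRN and HYLS1. KIF20A, CCNB1 and CENPE are among the largest falls. A CCAAT box, CCAAT on either strand, occurred in 29 of 31 called-lower promoters (93.5%), 17 of 30 called-higher promoters (56.7%) and 37.5% of all tested ones. Of the mitosis genes that were not called, 39 of 58 (67.2%) held TTTGAA or TTCGAA as well. In 13 of the called-lower genes a match began 10 to 60 bases before the start. A match of letters is a description and does not show that a factor binds. The last 150 bases before the start are printed for 4 of the largest falls that hold the cell cycle element there, since they show how close to the start it can lie. Both motifs are in capitals, and TTCAAA and ATTGG are their reverse-strand forms.
DLGAP5 (chr14:55191586-55191735, minus strand): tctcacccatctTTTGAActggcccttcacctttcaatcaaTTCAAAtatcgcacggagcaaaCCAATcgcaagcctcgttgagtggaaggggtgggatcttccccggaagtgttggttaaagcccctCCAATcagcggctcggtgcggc
PIF1 (chr15:64825648-64825797, minus strand): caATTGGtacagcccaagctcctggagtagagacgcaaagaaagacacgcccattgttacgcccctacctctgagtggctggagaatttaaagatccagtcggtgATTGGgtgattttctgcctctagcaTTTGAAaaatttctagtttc
DEPDC1 (chr1:68497083-68497232, minus strand): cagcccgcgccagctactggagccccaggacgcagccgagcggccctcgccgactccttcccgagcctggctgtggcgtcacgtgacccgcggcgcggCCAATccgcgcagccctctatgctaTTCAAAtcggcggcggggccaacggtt
CENPA (chr2:26785906-26786055, plus strand): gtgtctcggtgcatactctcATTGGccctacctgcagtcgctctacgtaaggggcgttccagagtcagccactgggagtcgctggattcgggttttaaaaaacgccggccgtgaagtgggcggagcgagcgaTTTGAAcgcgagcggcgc
The element begins 18 bases before the start in CENPA, 20 in PIF1 and 27 in DEPDC1, a DEP-domain protein whose transcript fell by 0.71 on the log2 scale (± 0.09). DLGAP5 holds it at 138 and at 109 bases before the start.

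Of 15 tested regulators of G1 and S phase 3 rose and 0 fell, against 0.377% that rose over all tested genes. CCNE1, cyclin E1, which activates CDK2 at the G1/S transition, measured 8.21, 8.21 and 8.52 with ST5589 against 7.95, 7.73 and 7.98 with DMSO in DoHH2, and 9.22, 9.28 and 9.23 against 8.41, 8.79 and 8.71 in TMD8. It was higher on every treated array and averaged 0.52 ± 0.08 (limma adjusted p = 0.00779), although a second CCNE1 probe gave 0.06. E2F7, an atypical E2F that represses E2F targets, averaged 0.57 ± 0.08 (limma adjusted p = 0.00385). CDC25A, the phosphatase that activates CDK2, averaged 0.44 ± 0.09, with 0.17 from a second probe, and lost its call in 10 of 12 fits that left out 1 array. The median of the 15 genes was 0.14, but it was -0.02 with common median scaling.

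Of 51 tested DNA replication genes 4 rose and 0 fell, but 46 were above 0 on average and 42 in both lines. Their median was 0.22 on average, 0.16 in DoHH2 and 0.30 in TMD8. Over all tested genes 0.377% rose and 34.1% were above 0 in both lines. The 4 replication genes that rose were CHAF1B (0.44 ± 0.07), a subunit of chromatin assembly factor 1, MCM5 (0.43 ± 0.09) and MCM4 (0.40 ± 0.08), both subunits of the replicative helicase, and CDC45 (0.43 ± 0.09), its activator. CHAF1B kept its call in all 12 fits that left out 1 array, whereas MCM5 lost it in 10, MCM4 in 8 and CDC45 in 11. The mean of the 51 genes relative to DMSO was 0.14, 0.15 and 0.18 with ST5589 against -0.04, -0.01 and 0.05 with DMSO in DoHH2, and 0.31, 0.29 and 0.30 against -0.04, 0.01 and 0.03 in TMD8. The treated arrays stood above the DMSO arrays in both lines. The median was 0.07 with common median scaling, and 8 of the 51 were called without the lowest-correlation array of those 3 groups. GINS1, a helicase subunit, was at -0.01 ± 0.07, and the kinase CDC7 at 0.02 ± 0.08. An E2F motif (TTTGGCGC, TTTCCCGC or TTTCGCGC on either strand) occurred in 21 of 45 matched promoters of the list (46.7%), in 6 of 30 called-higher promoters (20%), in 1 of 31 called-lower ones (3.23%) and in 4.79% of all tested ones. The CDC25A promoter is shown with this motif, 44 bases before the start, in capitals.
CDC25A (chr3:48188418-48188567, minus strand): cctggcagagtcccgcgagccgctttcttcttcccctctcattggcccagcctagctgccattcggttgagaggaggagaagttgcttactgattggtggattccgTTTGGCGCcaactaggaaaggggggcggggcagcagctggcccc
Among 19 tested genes of DNA repair and checkpoints 2 rose and 0 fell, with a median of 0.19 that was 0.01 with common median scaling. EXO1, an exonuclease of mismatch repair, was at 0.34 ± 0.06 and UNG, uracil-DNA glycosylase, at 0.35 ± 0.07, although a second UNG probe gave 0.05; they lost their calls in 6 and 10 of the 12 fits that left out 1 array.

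CDKN1A, which encodes the cell cycle inhibitor p21 and is the classical p53 target, rose about equally in both lines. It measured 11.64, 11.49 and 12.15 with ST5589 against 10.84, 10.64 and 10.59 with DMSO in DoHH2, and 11.79, 11.87 and 11.83 against 10.26, 10.97 and 10.98 in TMD8. The groups did not overlap, and the averaged rise was 1.08 ± 0.13 (limma adjusted p = 0.00135), 2.12-fold, with 1.07 ± 0.19 in DoHH2 and 1.09 ± 0.19 in TMD8. The difference between the lines was -0.02 ± 0.27, and a second CDKN1A probe averaged 0.69.

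Of 31 tested p53 targets 9 rose, 0 fell and 10 were apart in both lines in the upward direction. Over all tested genes 0.377% rose and 1.16% were apart and higher in both lines. Without the lowest-correlation array of those 3 groups 12 of the 31 rose. GADD45A, a stress sensor that slows the cycle in G2, measured 9.37, 9.52 and 9.22 with ST5589 against 8.87, 8.67 and 9.0 with DMSO in DoHH2, and 7.16, 7.62 and 7.17 against 6.43, 6.49 and 6.42 in TMD8. It rose on all treated arrays, by 0.70 ± 0.09 (limma adjusted p = 0.00213). PPM1D, the phosphatase that switches p53 signalling off, was at 0.55 ± 0.07, and PHLDA3, an inhibitor of AKT, at 0.57 ± 0.07. Pro-apoptotic members were among them: TNFRSF10B, the death receptor for TRAIL, at 0.49 ± 0.07, PMAIP1, the BH3-only protein NOXA, at 0.50 ± 0.08, and AEN, a nuclease of apoptosis, at 0.47 ± 0.08. A second PMAIP1 probe gave 0.12. The last were DDB2, a damage sensor of nucleotide excision repair (0.39 ± 0.07), and SESN2, an inhibitor of mTORC1 (0.48 ± 0.09). In TMD8, SESN2 was above background on 1 of 3 ST5589 arrays and 0 of 3 DMSO arrays. In DoHH2 it was above background on 3 and 2 of 3. Its effect was 0.68 in DoHH2 and 0.29 in TMD8, where it lay near background.

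The p53 list was uneven. Its median was 0.11, with 0.05 in DoHH2 and 0.23 in TMD8, against 0.01 for all genes, and 8 of 31 members were below 0. MDM2, the ubiquitin ligase of p53, averaged 0.35 ± 0.10 and was not called (limma adjusted p = 0.185). EDA2R, a death-domain receptor, and TP53I3, an oxidoreductase, were both at -0.01 (± 0.09 and ± 0.05). By array the mean of the list was 0.22, 0.17 and 0.12 with ST5589 against 0.00, 0.01 and -0.01 with DMSO in DoHH2, and lay between 0.25 and 0.35 with ST5589 against -0.02 to 0.03 with DMSO in TMD8. Of the 14 tested genes of the BCL2 family PMAIP1 alone was called.

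ATF3, a stress-induced transcription factor, had the smallest adjusted p of any gene, both on average and in DoHH2. It measured 8.33, 8.17 and 8.0 with ST5589 against 6.93, 6.97 and 7.11 with DMSO in DoHH2, and 10.46, 10.26 and 10.56 against 9.45, 9.53 and 9.55 in TMD8. No treated array overlapped the DMSO arrays of its line. ATF3 rose by 1.16 ± 0.11 in DoHH2 (limma adjusted p = 0.000496) and by 0.91 ± 0.11 in TMD8 (limma adjusted p = 0.000859), an average of 1.04 ± 0.07 (limma adjusted p = 2.74e-05). The difference, 0.25 ± 0.15, did not pass (limma adjusted p = 1).

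DDIT4, an inhibitor of mTORC1 also known as REDD1, measured 10.17, 9.92 and 10.10 with ST5589 against 9.22, 9.55 and 9.41 with DMSO in DoHH2, and 9.06, 9.32 and 9.24 against 8.06, 8.21 and 8.21 in TMD8. All treated arrays were higher, with an average of 0.86 ± 0.08 (limma adjusted p = 0.000135). INHBE, the inhibin beta E subunit, was dim: 7.02, 7.10 and 7.31 with ST5589 against 6.4, 6.32 and 6.41 with DMSO in DoHH2, and 6.74, 6.38 and 6.65 against 6.17, 6.08 and 6.04 in TMD8. It rose 1.70-fold in DoHH2 and, since no DMSO array of TMD8 was above background, at least 1.34-fold in TMD8 (limma adjusted p = 0.0343 and 0.0498 in the 2 lines, and 0.00131 for the average). The bound is the mean of the treated arrays over, per DMSO array, the higher of its own signal and the lowest signal above background.

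Of 33 tested genes of the integrated stress and amino acid response 8 rose and 0 fell, also without the lowest-correlation array of those 3 groups. Besides ATF3, DDIT4, INHBE and SESN2 these were TRIB3 (0.68 ± 0.14), a pseudokinase that restrains AKT and ATF4, DDIT3 (0.67 ± 0.11), the factor CHOP, PPP1R15A (0.58 ± 0.10), the phosphatase subunit GADD34 that restores translation, and CEBPB (0.57 ± 0.11), a partner of ATF4. The DDIT3 arrays overlapped in DoHH2. TRIB3 and CEBPB lost their calls in 6 and 5 of the 12 fits that left out 1 array, and PPP1R15A only without TMD8 ST5589 replicate 1 (limma adjusted p = 0.050). Among all tested genes 0.377% rose, 34.1% were above 0 in both lines and 1.16% were apart and higher in both. In the stress list 31 of 33 members were above 0 on average, 30 in both lines and 12 apart in both lines. The list had a median of 0.24, 0.22 in DoHH2 and 0.27 in TMD8. By array its mean was 0.26, 0.30 and 0.35 with ST5589 against -0.04, -0.01 and 0.04 with DMSO in DoHH2, and 0.36, 0.23 and 0.34 against -0.10, 0.07 and 0.03 in TMD8. With common median scaling the median was 0.06. PSPH, of serine synthesis, was at -0.02 ± 0.13 (0.21 from a second probe) and SLC7A11, the cystine transporter, at 0.04 ± 0.06.

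The CRE-type motif of the ATF and CREB family (TGACGTCA or TGACGCAA on either strand) occurred in 3 of 30 called-higher promoters (10%), 2 of 31 called-lower ones (6.45%) and 4.31% of all tested ones. It is printed in capitals for 2 called rises that hold the full palindrome close to the start, 58 bases before it in PPP1R15A and 61 in PPM1D.
PPP1R15A (chr19:48872271-48872420, plus strand): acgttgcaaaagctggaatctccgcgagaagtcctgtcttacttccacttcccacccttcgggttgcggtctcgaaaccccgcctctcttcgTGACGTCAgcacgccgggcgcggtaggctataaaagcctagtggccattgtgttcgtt
PPM1D (chr17:60600043-60600192, plus strand): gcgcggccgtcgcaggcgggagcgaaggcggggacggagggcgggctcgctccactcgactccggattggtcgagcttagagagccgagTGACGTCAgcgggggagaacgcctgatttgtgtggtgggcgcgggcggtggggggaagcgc
The C/EBP-ATF element (TGATGCAAT, TGATGTAAT or TGATGAAAT on either strand) was in 0 of the 30 called-higher promoters and in 0.471% of all tested ones.

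**Figure D3:**
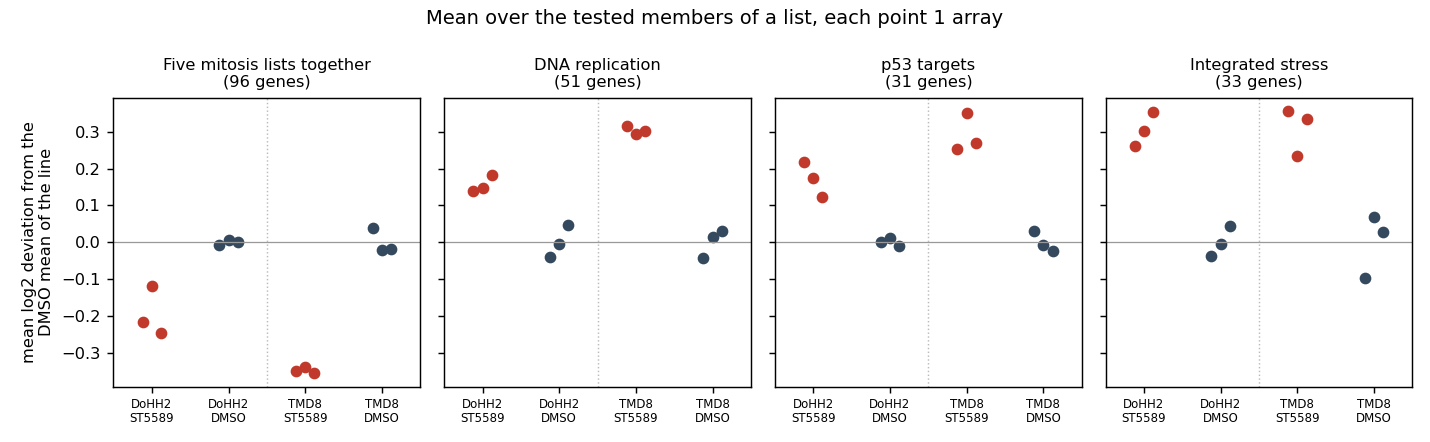
Mean over the tested members of 4 gene lists on each array (vertical axis: mean log2 deviation from the DMSO mean of the same line; each point is 1 array). The mitosis genes lie between -0.36 and -0.12 on ST5589 arrays, and the other 3 lists between 0.12 and 0.36, while DMSO arrays lie between -0.10 and 0.07.

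Other branches of stress signalling gave no calls, but with 0.744% of all tested genes called, 0 in lists of these sizes is near that share. The same holds for the further lists below that gave no call. None of 17 tested chaperones and foldases of the endoplasmic reticulum was called, and their median was -0.05. None of 19 genes of heat shock and oxidative stress passed either, with a median of -0.03. The retinoid class of the parent compound made retinoic acid targets a natural question. Of 18 listed genes 11 were tested, none was called, and all lay between -0.05 and 0.18. CYP26A1, which degrades retinoic acid and is a classical retinoid-induced gene, was near background: it was above it on 3 ST5589 arrays and 1 DMSO array of TMD8 and on no array of DoHH2, and averaged 0.05 ± 0.06 (limma adjusted p = 0.839). MYC was at 0.07 ± 0.08 (-0.16 from a second probe), and none of 20 genes of MYC and ribosome biogenesis was called. Of 21 NF-kB targets and 18 immediate early genes 1 was called in each list, IER3 (0.50 ± 0.10), a gene of both; it was above background on 2 of 3 arrays of each DoHH2 group and lost its call in 11 of the 12 fits that left out 1 array. No gene was called among 20 of the interferon response, 16 of antigen presentation, 20 of cholesterol and fatty acid synthesis, 17 of autophagy and the lysosome, 31 replication-dependent histones, 24 proteasome subunits, 73 ribosomal proteins or 10 reference genes. The reference genes had a median of 0.05, which was -0.15 with common median scaling. None of the 41 tested marker genes of pan-B, germinal centre B, activated B, T and NK, myeloid, and stromal and epithelial cells was called.

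**Figure D4:**
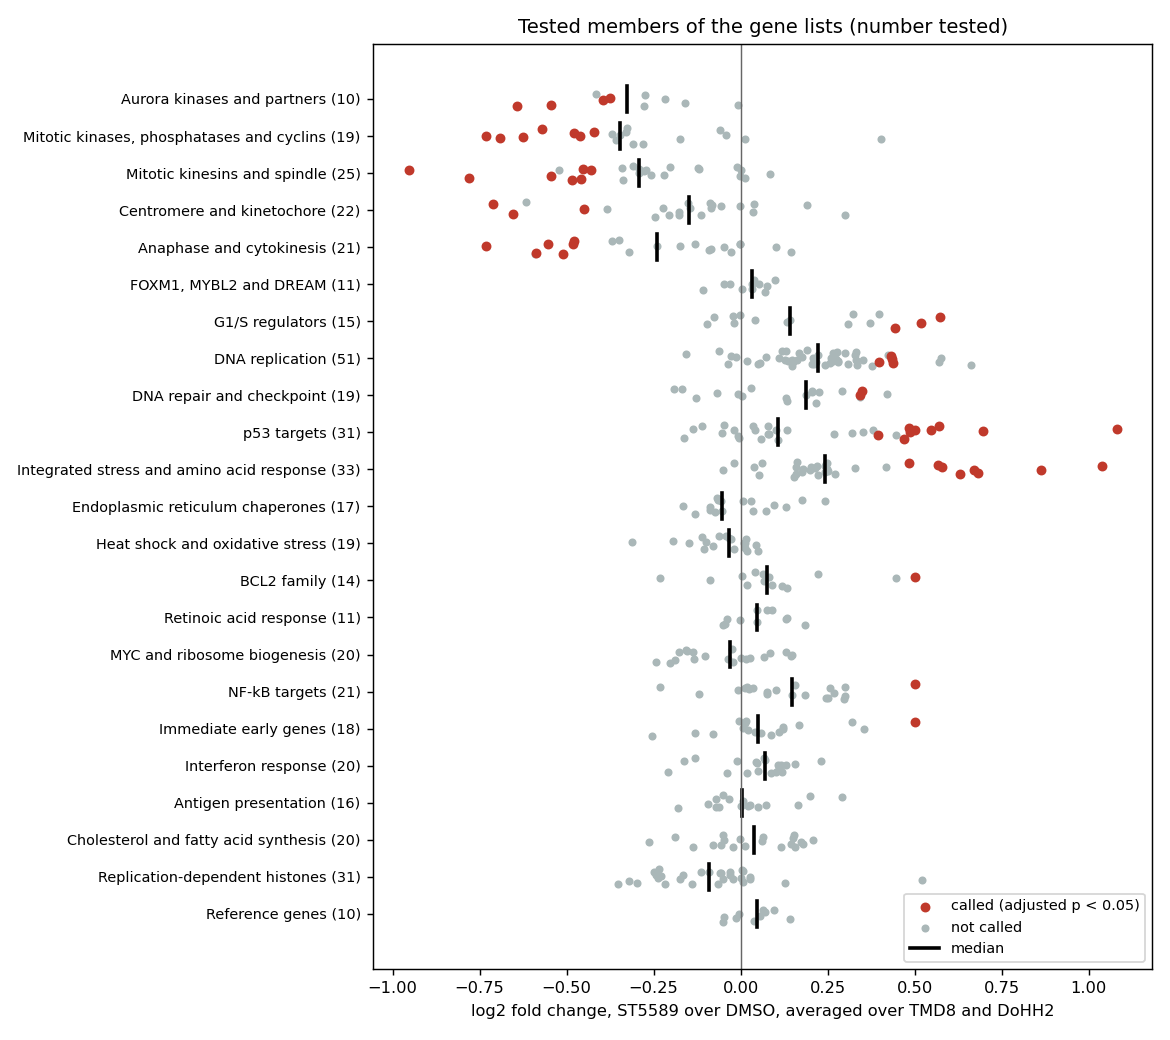
Averaged log2 fold change (horizontal axis) of each tested member of 23 gene lists; red points are called genes, grey points are not called, and black bars are medians. Calls lie to the left in the 5 mitosis lists. They lie to the right in the G1/S, replication, repair, p53 and stress lists, and 1 gene is called in each of 3 further lists. With common median scaling no gene is called. The medians of the G1/S, reference gene, FOXM1 and DREAM, immediate early, interferon, antigen presentation and cholesterol lists then turn from positive to negative.

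Small RNAs had the largest averaged rises among called genes, led by RNU4-2 and RNU6ATAC, and these rises were seen in TMD8, with DoHH2 values near 0. RNU4-2, the U4 spliceosomal RNA, measured 8.05, 8.34 and 8.14 with ST5589 against 8.01, 8.40 and 8.02 with DMSO in DoHH2, and 11.41, 12.49 and 11.31 against 9.70, 9.08 and 9.05 in TMD8. The DoHH2 groups overlapped, and the effect was 0.03 ± 0.26 in DoHH2 and 2.46 ± 0.26 in TMD8, an average of 1.25 ± 0.18 (limma adjusted p = 0.00418). RNU6ATAC, an RNA of the minor spliceosome, measured 6.39, 6.51 and 6.44 against 6.69, 6.63 and 6.51 in DoHH2, and 9.71, 10.92 and 9.68 against 7.79, 7.51 and 7.38 in TMD8, each time ST5589 against DMSO. Its effects were -0.16 ± 0.24 in DoHH2 and 2.54 ± 0.24 in TMD8. The difference, -2.71 ± 0.35, passed (limma adjusted p = 0.0148), 1 of 2 genes with such a call (0.0175%). That count was 0 without DoHH2 DMSO replicate 1, DoHH2 DMSO replicate 3, DoHH2 ST5589 replicate 1 or TMD8 DMSO replicate 2, was 1 without DoHH2 DMSO replicate 2, DoHH2 ST5589 replicate 2, TMD8 DMSO replicate 3 or TMD8 ST5589 replicate 1, and was 4 and 18 without TMD8 ST5589 replicates 3 and 2.

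RN7SK, the RNA that holds the elongation factor P-TEFb inactive, averaged 1.08 ± 0.20, with -0.01 ± 0.28 in DoHH2 and 2.17 ± 0.28 in TMD8. The H/ACA nucleolar RNAs SNORA2B, SNORA38B and SNORA6 averaged 1.04 ± 0.18, 0.80 ± 0.14 and 0.77 ± 0.16, and their DoHH2 values were -0.04, 0.04 and 0.00. These 6 calls needed a model that lets the effect differ between lines: with cell line as a purely additive block their adjusted p from limma was 0.201 to 0.275. RN7SK also lost its call without DoHH2 DMSO replicate 2, DoHH2 DMSO replicate 3 or DoHH2 ST5589 replicate 2, and SNORA6 in 9 of 12 such fits. TMD8 ST5589 replicate 2 had the highest value of each of the 6 RNAs. On the same arrays the median of 3 ribosomal RNA probes was 6.92, 10.15 and 10.34 with ST5589 against 10.58, 9.10 and 10.72 with DMSO in DoHH2, and 11.59, 13.12 and 11.94 against 10.75, 11.11 and 11.02 in TMD8. In TMD8 every ST5589 array was above every DMSO array in this signal too. The part of ribosomal RNA signal in the small RNA results was not tested.

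Not all small RNAs rose in TMD8. VTRNA1-1, a vault RNA, measured 6.45, 6.86 and 6.35 with ST5589 against 6.44, 6.67 and 6.38 with DMSO in DoHH2, and 8.47, 8.50 and 8.44 against 10.10, 9.93 and 9.70 in TMD8. Its effect was 0.06 ± 0.14 in DoHH2 and -1.45 ± 0.14 in TMD8, and it is the other gene for which the difference passed (1.5 ± 0.19, limma adjusted p = 0.0148). Its average, -0.69 ± 0.10, was called (limma adjusted p = 0.00311), but not with cell line as an additive block (limma adjusted p = 0.248). RNY4, a Y RNA that binds the Ro protein, averaged -0.99 ± 0.15 (limma adjusted p = 0.0043), the largest fall of all, with -0.40 ± 0.21 in DoHH2 and -1.58 ± 0.21 in TMD8. Its arrays read 7.79, 8.04 and 7.79 with ST5589 against 8.03, 8.60 and 8.17 with DMSO in DoHH2, and 7.75, 8.0 and 7.71 against 9.97, 9.22 and 9.01 in TMD8. The DoHH2 groups overlapped slightly. SNORD14C, a C/D nucleolar RNA (-0.47 ± 0.07), and SNORA8, an H/ACA one (-0.33 ± 0.07), were the 2 small RNAs that fell with the groups apart in both lines; SNORA8 lost its call in 11 of 12 fits that left out 1 array.

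By class, 2 of 11 small nuclear RNAs rose, 3 of 79 H/ACA RNAs rose and 1 fell, 1 of 90 C/D RNAs fell, and 1 of 4 Y RNAs and 1 of 3 vault RNAs fell. Of 18 Cajal body RNAs 0 were called. Over all tested genes 0.744% were called and 5191 of 11419 were below 0 on average. The calls among C/D RNAs (1.11%) and Cajal body RNAs lie near the share of 0.744%. The class medians were -0.05 in DoHH2 and 0.51 in TMD8 for small nuclear RNAs, -0.07 and 0.09 for H/ACA RNAs, and -0.12 and -0.09 for C/D RNAs, of which 66 of 90 were below 0 on average.

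**Figure D5:**
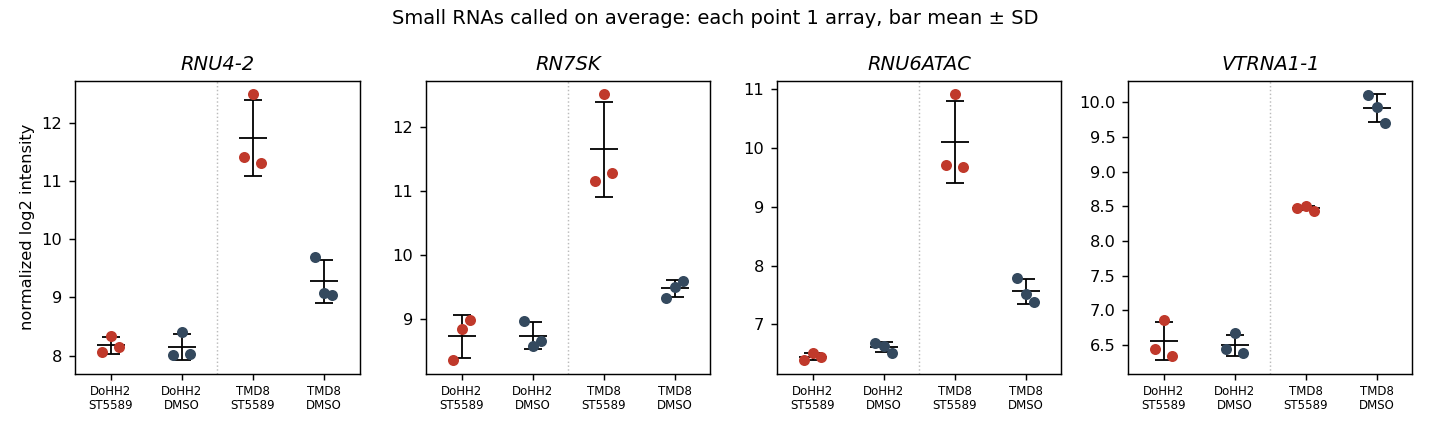
Normalized log2 intensity (vertical axes, not starting at 0) of RNU4-2, RN7SK, RNU6ATAC and VTRNA1-1 in each group; each point is 1 array and bars give mean ± SD of 3 arrays. The ST5589 arrays stand apart from DMSO in TMD8 in all 4 panels, while the DoHH2 values of VTRNA1-1, for example, all lie between 6.35 and 6.86.

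The called genes outside all lists numbered 24, 12 in each direction. Several of those that fell are also known from mitosis: DEPDC1, CDCA3 (-0.63 ± 0.08), a trigger of mitotic entry, CDKN3 (-0.61 ± 0.08), a phosphatase of cyclin-dependent kinases, KNSTRN (-0.50 ± 0.09), the kinetochore protein kinastrin, and GPSM2 (-0.46 ± 0.07), which orients the spindle. PTTG3P (-0.60 ± 0.11) is a pseudogene of the securin gene PTTG1, whose transcript its probe may also detect, and it lost its call without TMD8 DMSO replicate 3 or TMD8 ST5589 replicate 1. SUN2, of the nuclear envelope, was at -0.65 ± 0.10, ARHGAP27P1, another pseudogene, at -0.59 ± 0.08, SAPCD2 at -0.49 ± 0.09, FAM72A, 1 of a set of near-identical copies, at -0.40 ± 0.06, HYLS1, of the centriole, at -0.40 ± 0.07, and CLCC1 at -0.37 ± 0.08. In 11 of these 12 the DoHH2 fold change was between -0.59 and -0.29, and in SAPCD2 it was -0.16.

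Among the rises outside the lists, NBPF9, a gene of a family of near-identical copies, was at 0.57 ± 0.11, although a second probe gave 0.03, and it lost its call in 7 of 12 fits that left out 1 array. ACTA2, smooth muscle actin, was at 0.62 ± 0.11, CD1D, which presents lipids to NKT cells, at 0.52 ± 0.09, TNFSF9, the 4-1BB ligand, at 0.47 ± 0.08, FCRL2, an Fc receptor-like protein of B cells, at 0.44 ± 0.08, and PAQR4 at 0.43 ± 0.07. LHFPL2, BLOC1S2 and SLC30A3 lay between 0.30 and 0.35. CYP1A1, the cytochrome induced through the aryl hydrocarbon receptor, averaged 0.53 ± 0.08, but it was not well above background on any DoHH2 array, so the value rests on TMD8 (1.02). INKA2 (0.36 ± 0.08) was likewise not well above background on any ST5589 array of DoHH2, and above it on 1 of 3 DMSO arrays there. RN7SK, described above, completes the set.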

How the data were processed

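The deposited table of intensity values is on a linear scale and not normalized; the authors also deposited a table of processed log2 values, used as an alternative. GenomeStudio is listed in the submitters' processing notes, without a version; for the normalization of these values, the method was not given in the sources used here. Per the labels' protocols, total RNA was amplified to biotin-labelled cRNA. Intensities were background-corrected with normexp (offset 50), converted to log2 and quantile normalized (R 4.3.3, limma 3.58.1). The table holds no detection p-values, so background was the mode of each array, and a probe counted as above background at 2.33 SD over the mode. Of 47231 probes 20535 passed, being above background on every array of 1 or more groups; 15380 had 1 gene symbol, from the platform annotation updated to current symbols, and the brightest probe stood for each of 11419 genes.

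A model with 1 coefficient for each of the 4 groups, taken from the sample labels, was fitted with lmFit and eBayes. The averaged effect, each line's effect and their difference (DoHH2 minus TMD8) are contrasts of it, adjusted by Benjamini-Hochberg over all genes. The 12 arrays limit the precision. The fit was tested on simulated data. Same-numbered arrays did not deviate together (correlations -0.49 to 0.003), so no pairing was assumed. Some differently numbered arrays of DoHH2 correlated more strongly, at 0.57 for ST5589 replicate 1 with DMSO replicate 2 and at -0.53 for ST5589 replicate 3 with DMSO replicate 2. The reason was not tested. Promoters came from RefSeq (GRCh38.p14) and matched 9126 genes by identifier. Genes named were AURKA, AURKB, PLK1, CCNB1, KIF20A, DLGAP5, CDKN1A, MDM2, ATF3, INHBE, MYC and CYP26A1, the 12 largest rises and falls among called genes apart in both lines, the 5 largest that were not, up to 4 called members and 2 members nearest to 0 of each list, and genes called for the difference; other called genes were named after their values were seen. The members, the lists and this rule were chosen with earlier results of these data known.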

Additional observations from a re-analysis of the deposited data

Results flagged for a closer look

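Both genes called for the difference of the ST5589 effects (DoHH2 minus TMD8) are small RNAs: RNU6ATAC at -2.71 and VTRNA1-1 at 1.5 on the log2 scale. BLK, a B-cell kinase, is listed because its ST5589 arrays lay above the DMSO arrays in DoHH2 (0.26) and below them in TMD8 (-0.26). The difference of 0.52 did not pass (limma adjusted p = 1).

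Of the 5155 kept probes without a gene symbol here, which the comparisons did not use, 8 were called for the averaged effect (0.155%), 3 higher and 5 lower. The 21 probes that are bright in TMD8 held weak signal on DoHH2 ST5589 replicate 2, at a median of 4.15% of the TMD8 level. They passed the background filter through their TMD8 arrays, so any of them that stands for a gene was part of the comparisons. The source of the weak signal was not tested.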

How the results depend on the processing

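Of 25 alternatives to the averaged fit, leaving out 1 array gave 64 to 82 called genes, against 85. Array weights gave 270 (179 higher, 91 lower) and scaling to a common median 0. With a replicate block of same-numbered arrays 46 remained (18 higher, 28 lower). No array correlated best with the array of its own number. TMD8 gave 455 with array weights, 40 with the replicate block, 9 with common median scaling, 160 without the array of lowest correlation in 3 groups and 50 to 117 without 1 array, against 106. DoHH2, with 4, gave 1 from its arrays alone, with the filter on all 12 arrays or with no background correction, 2 with offset 16, with trend and robust settings or without those 3 arrays, 0 with the replicate block or common median scaling, and 1 to 5 without 1 array. The difference, with 2, gave 15 with array weights, 4 with offset 16, 1 with the authors' processed values, no background correction, the replicate block or without those 3 arrays, 0 with common median scaling, and 0 to 18 without 1 array. Genes apart in both lines numbered 48 with common median scaling, against 261. The causes were not tested. No called named gene changed sign, and 29 of 56 were called in every alternative but common median scaling. The mitosis lists held 18 to 46 called genes outside that scaling, against 26. In DoHH2 the effects called were 0.68 to 1.16 in size, and CDKN1A at 1.07 was not called. CYP1A1 and CYP26A1 were not above background on any DoHH2 array, which limits their values there.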
